A study of Mus musculus with 6 samples.

Results

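Secreted factors that act on blood vessels were followed in bone marrow cultures with and without midkine: the VEGF family ligands Vegfa, Vegfb, Vegfc and Pgf, the vasoactive peptide genes Edn1 and Adm, the EGF family ligand Hbegf and the matrix glycoprotein gene Thbs1. All 8 symbols were found among the 14912 genes of the normalised read count table. The genes were selected on their levels in these same control and midkine libraries. Those levels, and the calls and intervals given with them, are therefore a description and not a test.

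Vegfa drives endothelial growth and permeability through the receptor kinase Kdr, whereas Pgf and Vegfb bind the decoy-like receptor Flt1 and Vegfc acts mainly on lymphatic vessels through Flt4. Endothelin 1, made from the Edn1 precursor by the converting enzyme Ece1, constricts vessels, and adrenomedullin, encoded by Adm, widens them through a receptor built from Calcrl and a RAMP partner. Heparin-binding EGF-like growth factor (Hbegf) is shed from the cell surface and activates the EGF receptor, and thrombospondin 1 (Thbs1) restrains vessel growth through Cd36 and Cd47 and helps to activate latent TGF-beta. Several of these genes, Vegfa, Edn1 and Adm among them, are textbook targets of the hypoxia-inducible factor HIF, and myeloid cells are a known source of VEGF in inflamed and tumour tissue.

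Cells flushed from the marrow of C57BL/6J mice of wild-type genotype were grown with FLT3 ligand, the cytokine that supports dendritic cell development, at 50 ng/ml, and fresh medium with FLT3 ligand was given on day 7. Control cultures (n = 3) received no midkine, and midkine cultures (n = 3) were given human midkine, a secreted growth factor that binds heparin, as recombinant protein at 10 ng/ml over the closing 2 days. All 6 cultures therefore shared the strain, the genotype and the FLT3 ligand, and neither the age of the mice nor whether replicates came from different animals or dishes is given in the sources used here, so errors and p-values reflect only how these samples vary, which could be technical. RNA was read at transcript 3' ends, which gives about 1 tag per transcript. Reads numbered 5089338 to 5532055 per control library and 5685055 to 6453768 per midkine library, and mitochondrial ribosomal RNA took 9.33% to 9.86% of control reads and 18.1% to 20.9% of midkine reads. The labels call the cells bone marrow derived dendritic cells and name no sort. All 12 dendritic cell markers sought were measured, and their summed level was 34060.3 to 34615 normalised read counts in control and 34334 to 37331 in midkine libraries. That sum was mostly H2-Ab1 and Cd74, and the other 10 markers went from a mean sum of 7437 to 4489, without overlap.

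The genes lie apart in the genome (GRCm38, GENCODE vM21). Vegfa is on chromosome 17 from 46016993 to 46032369, Vegfb on chromosome 19 from 6982473 to 6987651, Vegfc on chromosome 8 from 54077606 to 54187096 and Pgf on chromosome 12 from 85166635 to 85177790. Edn1 is on chromosome 13 from 42301476 to 42307990, Adm on chromosome 7 from 110627661 to 110629820 and Thbs1 on chromosome 2 from 118111876 to 118127133. Exons of Edn1 overlap the antisense gene Gm47118 and those of Thbs1 the antisense gene Gm29233, and neither has a row among the 14912 genes.

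The upstream promoters of Vegfa, Edn1 and Adm are printed because these are the HIF targets of textbook biology and moved together here. They are RefSeq windows on GRCm38.p6, the 250 bases before the annotated start, on the strand of the gene, and capitals mark a searched motif. The motifs, searched on both strands, were the hypoxia response core ACGTG, the AP-1 site TGANTCA, the ATF4 composite site TGATGNAA and the Sp1 box GGGCGG, none of which contains another.
Vegfa, chr17:46032378-46032627, minus strand: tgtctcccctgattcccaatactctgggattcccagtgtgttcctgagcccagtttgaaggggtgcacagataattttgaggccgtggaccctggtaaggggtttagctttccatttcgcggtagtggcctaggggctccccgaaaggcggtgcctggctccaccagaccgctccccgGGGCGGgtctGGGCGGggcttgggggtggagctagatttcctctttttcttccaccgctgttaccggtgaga
Edn1, chr13:42301226-42301475, plus strand: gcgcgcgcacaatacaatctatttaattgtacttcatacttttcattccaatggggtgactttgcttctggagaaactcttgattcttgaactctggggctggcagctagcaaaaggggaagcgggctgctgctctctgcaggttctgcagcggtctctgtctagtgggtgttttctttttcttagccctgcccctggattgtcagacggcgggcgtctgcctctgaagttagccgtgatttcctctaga
Adm, chr7:110627407-110627656, plus strand: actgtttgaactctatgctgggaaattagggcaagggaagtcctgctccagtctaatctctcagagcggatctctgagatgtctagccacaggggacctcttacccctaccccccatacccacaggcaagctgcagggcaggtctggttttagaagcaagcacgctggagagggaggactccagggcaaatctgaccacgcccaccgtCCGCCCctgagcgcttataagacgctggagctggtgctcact
Edn1, last 30 bases of the window, after the start: gCACGTtgcctgtgggtgactaatcacaca

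The Vegfa window held the Sp1 box at positions -72 and -62 from its start and the Adm window held it, on the other strand, at -42. The 250 bases before the Edn1 start held none of the motifs, and its hypoxia core, read on the other strand as CACGT, began 22 bases after the start. A second RefSeq start of Vegfa, whose window is chr17:46025164-46025413, had the hypoxia core at -211 on the other strand and the Sp1 box at -158. That window lies inside the Vegfa gene (46016993 to 46032369), and the first Vegfa window held no hypoxia core. Of the 8 windows available for 6 of the genes (Vegfa, Vegfb, Vegfc, Pgf, Edn1 and Adm), none held the AP-1 or ATF4 letters. Among all 32851 RefSeq windows with the 50 bases after the start included, 19.6% held the hypoxia core, 7.81% the AP-1 site, 3.97% the ATF4 site and 35.7% the Sp1 box. Such matches describe letters in these windows only.

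With midkine, Edn1, Vegfa, Hbegf, Thbs1, Adm, Pgf and Vegfb were higher, by between 1.46 and 8.62 times as a ratio of means, and Vegfc, the lymphatic ligand, was at a few reads in both groups. The mean normalised read count reached 10 for 7 of the 8 genes, and each of those 7 also had a control mean above 10. In limma on log2(value + 1), with Benjamini-Hochberg adjustment over 11844 genes and a threshold of 0.05, 7 of the 7 were called higher, where 42.7% of all genes were called, 20.9% higher and 21.8% lower. Control and midkine libraries did not overlap for the same 7, as for 51.3% of all genes tested. These calls come from the contrast on which the genes were selected, so nothing is read from them. The 7 had a median log2 fold change of 1.96, beside -0.01 over all genes tested, and 6 of them exceeded 1, as did 740 genes (6.25%). Beside these differences, the summed level of 11 stromal markers was 2.86 times the control mean, and the mitochondrial ribosomal RNA share was higher in all midkine libraries. In bulk RNA, a change in the number of cells of a type and a change in RNA per cell cannot be told apart.

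**Figure D1:**
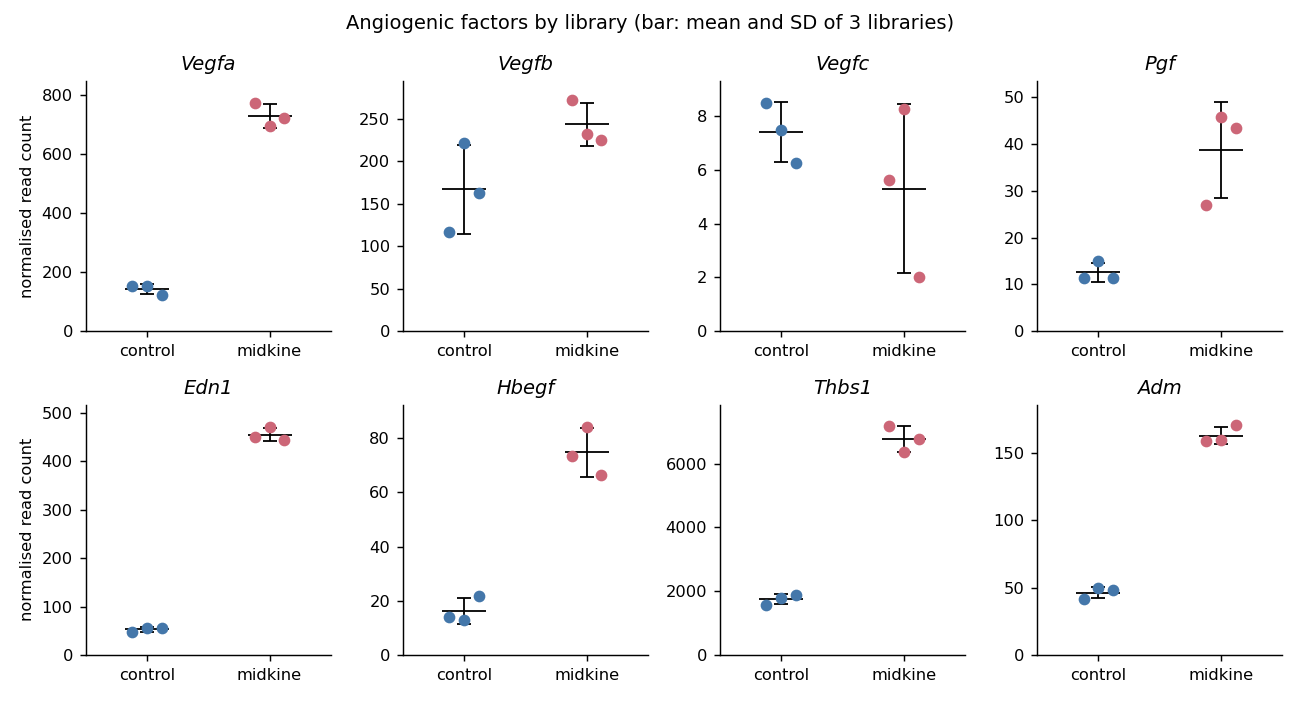
Normalised read count (y axis, linear from 0, scale set per gene) of each gene in the 3 control and 3 midkine libraries (points), with the mean and SD as bars. The midkine points lie above all control points for every gene shown except Vegfc, and for Vegfb the gap is narrow (1.02 times).

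**Figure D2:**
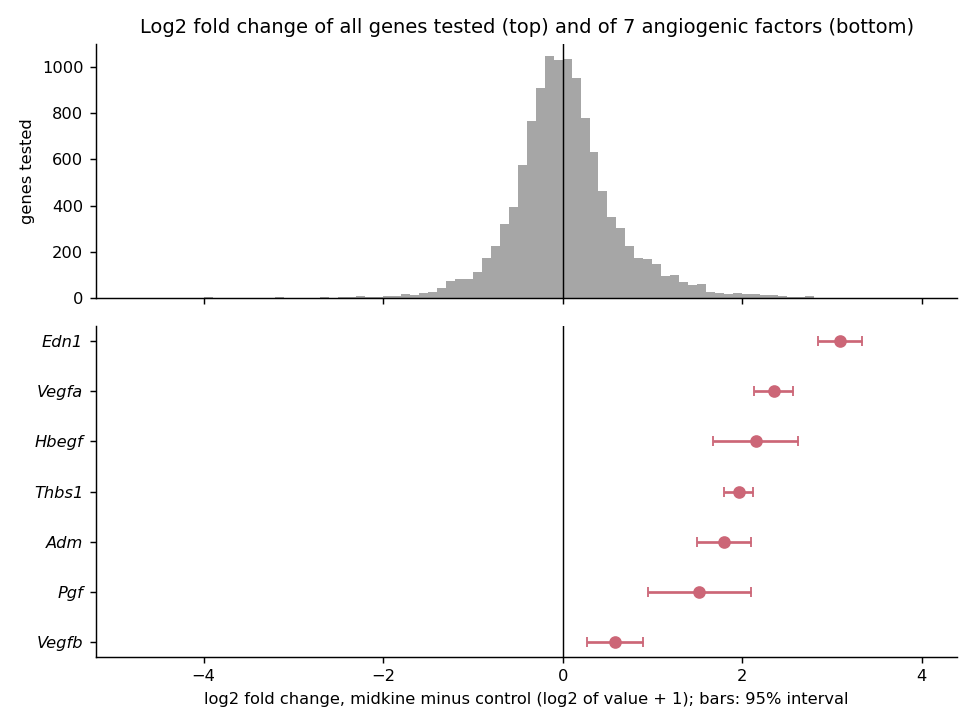
Histogram of the log2 fold change (x axis, midkine minus control, log2 of value + 1) of the 11844 genes tested, above the same quantity with its 95% interval for 7 angiogenic factors. Edn1 at 3.09 and Vegfa at 2.35 sit in the right tail, and Vegfb at 0.58 sits on the right shoulder.

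Among the VEGF family, Vegfa, the main endothelial growth factor, moved furthest. It was at 153, 153 and 122 normalised read counts in control replicates 1, 2 and 3 and 773, 693 and 719 in midkine replicates 1, 2 and 3. The 3 midkine libraries were close together and the lowest of them was 4.53 times the highest control. The means went from 143 ± 17.9 to 728 ± 40.9 (SD, n = 3 each), 5.11 times, a log2 fold change of 2.35 (SE 0.10, 95% interval 2.14 to 2.56). This was the 58th highest log2 fold change of the 11844 genes. The values rest on 117 to 164 reads per control library and 686 to 756 per midkine library, and the control coefficient of variation of 12.6% compares with 8.23% from counting alone.

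Pgf, placental growth factor, was rare but also higher. It was at 11.3, 14.9 and 11.5 normalised read counts in control replicates 1, 2 and 3 and 27.0, 45.8 and 43.4 in midkine replicates 1, 2 and 3. All midkine libraries lay above all controls, and midkine replicate 1 stood below the other two. The mean went from 12.6 ± 2.04 to 38.7 ± 10.2, 3.08 times, a log2 fold change of 1.52 (SE 0.28, 95% interval 0.95 to 2.10). With 11 to 16 reads per control library, counting alone gives a coefficient of variation of 27.7%, more than the 16.2% seen between the controls.

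Vegfb, a ligand linked to fatty acid handling and cell survival more than to vessel growth, was the least changed of the 7. It was at 117, 221 and 163 normalised read counts in control replicates 1, 2 and 3 and 273, 233 and 225 in midkine replicates 1, 2 and 3. The controls were widely spread, and the highest of them, replicate 2, nearly reached the lowest midkine library. The mean went from 167 ± 52.1 to 243 ± 25.6, 1.46 times, a log2 fold change of 0.58 (SE 0.15, 95% interval 0.27 to 0.90). The control coefficient of variation was 31.2%, against 7.62% from counting. Its log2 fold change was 0.35 without control replicate 1 and 0.81 without control replicate 2, and Vegfb was not called when libraries were scaled to total counts or when the variance trend was left out.

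Vegfc, the lymphatic ligand, did not reach the minimum mean and was not tested. It was at 8.50, 7.46 and 6.25 normalised read counts in control replicates 1, 2 and 3 and 5.63, 8.25 and 2.02 in midkine replicates 1, 2 and 3. The groups overlapped, with the lowest and the second highest values both among the midkine libraries. The 23 control reads (95% Poisson interval 14.6 to 34.5) and 16 midkine reads (9.15 to 26.0) show no difference detectable at this depth, and the intervals cover counting error only.

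The balance between Vegfa and Vegfb within a library does not depend on the scaling between libraries. Vegfa gave 1.31, 0.692 and 0.750 reads per Vegfb read in control replicates 1, 2 and 3 and 2.83, 2.98 and 3.20 in the midkine libraries. The groups did not overlap, and the mean ratio with midkine was 3.28 times that of the controls. This ratio and the other ratios of reads and per marker level given below were chosen after the values were seen.

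The receptors of these ligands did not move together. Of 5 measured receptors and co-receptors, 3 were tested, and Nrp2 rose, Kdr fell and Nrp1 was not called. Nrp2, a co-receptor of Vegfc and Vegfa, rose from 315 ± 25.0 to 466 ± 23.6 counts (log2 fold change 0.57 ± 0.09 SE, adjusted p = 2.55e-05 by limma). Kdr, the main signalling receptor of Vegfa, was at 60.4, 28.0 and 42.7 in the control and 25.9, 20.2 and 19.2 in the midkine libraries. Its controls were spread and lay above the midkine values, and it fell by 0.92 on the log2 scale (SE 0.26, limma adjusted p = 0.00609). The Kdr call was lost without control replicate 1 (-0.66, adjusted p = 0.0714, limma). Nrp1, the other co-receptor, was at 531 ± 50.2 in control and 525 ± 40.7 in midkine libraries (log2 fold change -0.01 ± 0.09 SE, adjusted p = 0.922 by limma), and with scaling to total counts it was called lower (-0.27, adjusted p = 0.0238, limma). Flt1 and Flt4, named after their values were seen, were below the minimum, with mean normalised read counts of 0.662 and 2.48 for Flt1 and 5.91 and 2.33 for Flt4 in control and midkine libraries.

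**Figure D3:**
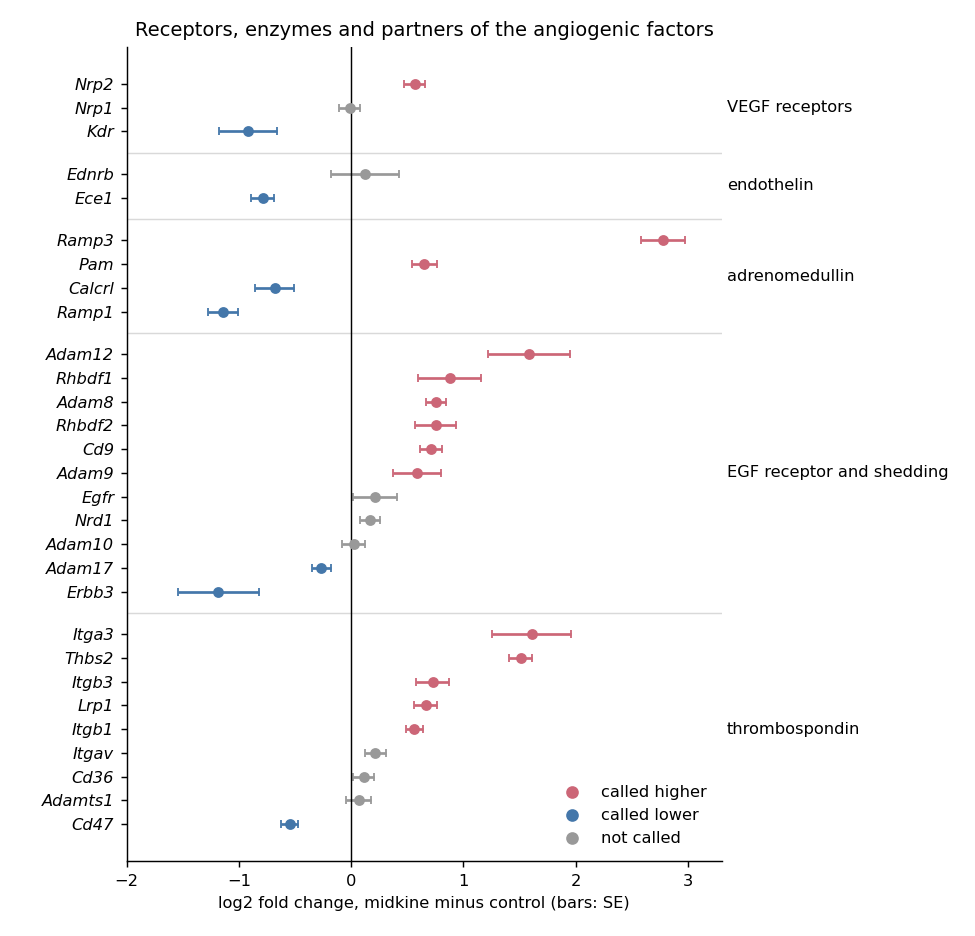
Log2 fold change (x axis, midkine minus control) with its SE for the tested receptors, enzymes and partners of the angiogenic factors, grouped by pathway and coloured by the limma call. Ramp3 at 2.78 is furthest to the right, and Kdr, Ece1, Calcrl, Ramp1, Erbb3, Adam17 and Cd47 are called lower.

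Edn1, the endothelin 1 precursor, was the most changed of the 8 genes. It was at 47.2, 56.0 and 55.2 normalised read counts in control replicates 1, 2 and 3 and 451, 471 and 444 in midkine replicates 1, 2 and 3. Each group was tight, and the lowest midkine library was 7.93 times the highest control. The mean went from 52.8 ± 4.85 to 455 ± 14.1, 8.62 times, a log2 fold change of 3.09 (SE 0.12, 95% interval 2.84 to 3.33), the 11th highest of all genes tested. The midkine coefficient of variation was 3.10%, against 4.71% from counting.

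The measured partners of Edn1 were few. Of 7 genes listed, 2 were measured, and Ece1 fell while Ednrb was not called. Ece1, the protease that cuts the endothelin precursor to its active form, was at 1061, 734 and 813 in the control and 482, 481 and 528 in the midkine libraries. It was lower in all midkine libraries, going from 869 ± 170.4 to 497 ± 26.5 (log2 fold change -0.79 ± 0.10 SE, adjusted p = 8.51e-07 by limma). Within a library, Edn1 gave 0.0445, 0.0762 and 0.0679 reads per Ece1 read in the controls and 0.935, 0.979 and 0.841 in the midkine libraries. The ligand and its processing enzyme thus went in opposite directions in these libraries. Ednrb, an endothelin receptor, was at 20.5 ± 7.99 in control and 21.1 ± 1.55 in midkine libraries (log2 fold change 0.12, 95% interval -0.51 to 0.75, limma adjusted p = 0.779).

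Adm, the adrenomedullin precursor, was higher in all midkine libraries. It was at 41.6, 49.4 and 47.9 normalised read counts in control replicates 1, 2 and 3 and 159, 159 and 171 in midkine replicates 1, 2 and 3. The 3 midkine values were nearly the same and the lowest was 3.21 times the highest control. The mean went from 46.3 ± 4.19 to 163 ± 6.55, 3.52 times, a log2 fold change of 1.80 (SE 0.15, 95% interval 1.50 to 2.10). The spread between replicates was below that of counting in both groups, 9.04% against 14.5% in controls and 4.02% against 7.87% with midkine.

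The adrenomedullin receptor parts changed in both directions. Of 4 measured genes of this pathway, Pam and Ramp3 rose and Calcrl and Ramp1 fell. Ramp3, which makes Calcrl an adrenomedullin receptor, was at 16.1, 14.9 and 15.6 in the control and 114, 104 and 121 in the midkine libraries. The groups were far apart, with means going from 15.5 ± 0.571 to 113 ± 8.80 (log2 fold change 2.78 ± 0.19 SE, adjusted p = 1.39e-11 by limma). Ramp1, which makes Calcrl a receptor for the related peptide CGRP, was at 228, 236 and 246 in the control and 115, 125 and 84.7 in the midkine libraries. It fell by 1.14 on the log2 scale (SE 0.13, limma adjusted p = 1.26e-07). There were 0.0705, 0.0632 and 0.0636 Ramp3 reads per Ramp1 read in the controls and 0.990, 0.831 and 1.43 with midkine, a mean ratio 16.5 times that of the controls. Calcrl, the shared receptor chain, fell from 93.1 ± 13.3 to 58.2 ± 12.6 (log2 fold change -0.68, adjusted p = 0.00271 by limma). Pam, the enzyme that amidates adrenomedullin and other peptides, rose from 348 ± 63.6 to 541 ± 41.6 (log2 fold change 0.65, adjusted p = 3.37e-05 by limma), and its exons overlap B230216N24Rik on the same strand, so reads could be split between them.

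Hbegf, the membrane-anchored EGF receptor ligand, was higher from a low base. It was at 14.2, 13.1 and 21.9 normalised read counts in control replicates 1, 2 and 3 and 73.2, 84.3 and 66.6 in midkine replicates 1, 2 and 3. The lowest midkine library was 3.04 times the highest control, which was replicate 3. The mean went from 16.4 ± 4.81 to 74.7 ± 8.95, 4.56 times, a log2 fold change of 2.15 (SE 0.23, 95% interval 1.68 to 2.63). The controls held 14 to 21 reads each.

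Genes of EGF receptor signalling and ligand shedding were higher in 6 of 11 cases, and in 4 of 11 with scaling to total counts. Of 13 measured 11 were tested, and 6 rose, 2 fell and 3 were not called, at a median log2 fold change of 0.59 beside -0.01 over all genes tested. Adam12, a metalloprotease able to shed Hbegf, rose from 7.46 ± 3.33 to 23.0 ± 3.37 counts (log2 fold change 1.59, adjusted p = 0.00102 by limma). The protease gene Adam8 (log2 fold change 0.75), whose exons overlap Gm16201 on the other strand, the tetraspanin gene Cd9 (0.71), whose product associates with the Hbegf precursor, and Rhbdf2 (0.75), which carries Adam17 to the cell surface, rose as well. Of the other 2 that rose, named after their values were seen, Adam9 (0.59) was lost in 7 and Rhbdf1 (0.88) in 4 of 18 alternatives. Erbb3, a receptor of the same family, fell by 1.18 (limma adjusted p = 0.00958), and this call was lost without control replicate 2 (-0.93, adjusted p = 0.0895) and without midkine replicate 2 (-0.90, adjusted p = 0.0510). Egfr and Adam17 were named for their roles after their values were seen. Egfr, the receptor of Hbegf, was at 38.2 ± 0.895 in control and 44.5 ± 1.95 in midkine libraries (log2 fold change 0.22, 95% interval -0.19 to 0.62, limma adjusted p = 0.397). Adam17, the best known sheddase of Hbegf, fell by 0.27 (limma adjusted p = 0.0122), a call lost without midkine replicate 2 (-0.22, adjusted p = 0.0538) and without the variance trend (adjusted p = 0.0727), and its exons overlap Iah1 on the other strand.

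Thbs1, thrombospondin 1, was the deepest counted of the 8 genes. It was at 1568, 1792 and 1867 normalised read counts in control replicates 1, 2 and 3 and 7189, 6358 and 6788 in midkine replicates 1, 2 and 3. The groups were clearly separated, and the lowest midkine library was 3.41 times the highest control. The mean went from 1742 ± 155 to 6778 ± 416, 3.89 times, a log2 fold change of 1.96 (SE 0.08, 95% interval 1.80 to 2.13). With 1660 to 1921 reads per control library counting gives a coefficient of variation of 2.36%, and the controls showed 8.93%.

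Its relatives and receptors included genes in both directions. Of 9 tested 5 rose, 1 fell and 3 were not called (median 0.56). Thbs2, the closest relative and also an inhibitor of vessel growth, was at 221, 259 and 197 in the control and 678, 633 and 614 in the midkine libraries. It rose by 1.51 (SE 0.10, limma adjusted p = 6.92e-12). The integrin genes Itgb1 (0.56) and Itgb3 (0.73) and Lrp1 (0.66), an endocytic receptor that clears thrombospondin, rose. Cd47, the widely expressed thrombospondin receptor and "do not eat me" signal, fell from 4275 ± 108 to 2922 ± 148 (log2 fold change -0.55, adjusted p = 1.01e-06 by limma). Cd36, the receptor through which thrombospondin 1 acts on endothelium, was named after its values were seen and was at 582 ± 65.1 in control and 627 ± 29.9 in midkine libraries (log2 fold change 0.11, adjusted p = 0.343 by limma).

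Among the 7 tested factors, log2 values over the 6 libraries followed each other closely for all but Vegfb. Pearson's r was 0.998 for Edn1 with Adm, 0.997 for Edn1 with Thbs1 and 0.991 for Vegfa with Edn1. For Vegfb with the other genes of the 7 it was between 0.694 and 0.770. These correlations run over 6 libraries that form 2 groups of 3, so they mostly restate the difference between the groups and carry no p. The same measure was taken with Vegfa and Edn1 over the tested genes, leaving out the factors and genes whose names begin with Gm or end in Rik. Among those kept, the genes most like Vegfa were Ptgs2 (r = 0.9986), Arl5a, Hspa5, Plod2 and Rpl36a, and 105 genes had an r over 0.99. Ptgs2, the inducible cyclooxygenase gene, went from a mean of 1.60 to 22.0 normalised read counts, and Hspa5, which encodes the chaperone BiP, from 10049 to 14589. Rpl36a is a ribosomal protein gene, a class with processed copies that could share reads, and exons of Plod2 overlap Gm38391 on the other strand. The genes most like Edn1 were Ier3 (r = 0.9997), Postn, Csf2rb, Trib3 and Mast4, and 197 genes had an r over 0.99. Exons of Mast4 overlap Cd180 on the other strand. Postn, the stromal matrix gene periostin, went from 370.4 to 1889, and Csf2rb, the shared receptor chain of GM-CSF, from 770.3 to 2098.

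Other genes that promote vessel growth, secreted factors apart from Plaur, were higher in 13 of 24 cases. Of 26 measured 24 were tested, and 13 rose, 2 fell and 9 were not called, at a median of 0.78. With scaling to total counts 11 were called higher and 3 lower. Of those that rose, Angpt2 (0.93) was lost in 5 and Cxcl1 (0.98) in 9 of 18 alternatives, both named after their values were seen. Ctgf, a matricellular factor that binds VEGF, rose from 750.2 ± 132 to 4938 ± 245 counts (log2 fold change 2.73 ± 0.09 SE, adjusted p = 1.95e-17 by limma). Its relative Cyr61 rose by 1.68, Angptl2, an angiopoietin-like factor, by 2.15 and Plaur, the urokinase receptor gene, by 2.36. Angpt1, which steadies vessels through the receptor Tek, was the exception among the 5 genes with the smallest p, going from 104 ± 5.70 to 21.4 ± 5.41 (log2 fold change -2.26, adjusted p = 1.50e-09 by limma). Mdk, the mouse gene for midkine itself and named after its values were seen, rose from 16.7 ± 5.41 to 32.9 ± 6.87 (log2 fold change 0.96, adjusted p = 0.00745 by limma).

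Inhibitors of vessel growth other than the thrombospondins were split. Of 8 tested 4 rose, 2 fell and 2 were not called (median 0.39). Sparc, a matrix protein that binds VEGF, rose from 5589.6 ± 930.4 to 11682 ± 1036 (log2 fold change 1.07, adjusted p = 2.08e-09 by limma). The chemokine genes Pf4, from 406 ± 83.7 to 167 ± 13.6 (log2 fold change -1.25), and Cxcl9, from 37.9 ± 9.59 to 8.95 ± 3.05 (-1.99), fell. The metalloprotease inhibitor genes Timp2 (0.44) and Timp3 (0.36) rose, but with scaling to total counts neither was called (0.18, adjusted p = 0.277 and 0.10, adjusted p = 0.390, limma), and the list then had 1 gene higher and 2 lower. Timp3 was also lost without the variance trend. Timp2 was also lost with quantile normalization, without the variance trend, with DESeq2 and without control replicate 1 (0.23, adjusted p = 0.0603, limma).

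Vegfa, Edn1 and Adm are textbook genes of the hypoxia response, whose other tested genes were mostly higher, while 4 of 8 regulators of oxygen sensing were. Of these 8 regulators of HIF 4 rose, 1 fell and 3 were not called (median 0.29). Hif1a, the oxygen-regulated subunit, was at 525, 656 and 655 in the control and 1153, 1009.9 and 1044 in the midkine libraries. It rose by 0.81 (SE 0.09, limma adjusted p = 7.62e-08). Egln3, a prolyl hydroxylase that is itself a HIF target, rose by 1.55, and Vhl, which marks HIF for destruction, fell by 0.67. Egln1 (0.35) and Epas1 (0.39) were called higher, but not with scaling to total counts (0.09, adjusted p = 0.511 and 0.14, adjusted p = 0.457, limma), which gave 2 regulators higher and 3 lower. Epas1 was also lost without control replicate 1 or 2 or midkine replicate 1 or 2 (log2 fold change 0.32 to 0.39), with totals free of ribosomal RNA (0.32, adjusted p = 0.0716, limma) and with DESeq2 (adjusted p = 0.0741). Egln1 was also lost without control replicate 3 (0.27) and without the variance trend (limma adjusted p = 0.0730).

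Of 27 tested hypoxia-inducible genes, the 8 angiogenic factors left out, 21 rose, none fell and 6 were not called (median 0.65). Over all genes tested, 20.9% were called higher and the median was -0.01. Of the 21, Pdk1 (0.32) was lost in 12, Ldha (0.21) in 9, Hk2 (0.24) in 7 and Hilpda (0.43) in 5 of 19 alternatives. For Ldha the groups overlapped. These genes were named after their values were seen. Egln3 is counted both here and among the regulators. Ddit4, an inhibitor of mTOR signalling, rose from 57.5 ± 1.98 to 335 ± 8.13 (log2 fold change 2.52 ± 0.12 SE, adjusted p = 7.46e-15 by limma). On the log2 scale, the collagen hydroxylase gene P4ha2 rose by 2.02, the lactate exporter gene Slc16a3 by 1.81 and the transcription factor gene Bhlhe40 by 2.00. Scaled to total counts, 15 of the 27 were called higher and 2 lower. The ATF4 list held Atf4, the transcription factor gene of the integrated stress response, together with its targets. Of these 15 genes 14 rose and 1 fell (median 1.51), and scaled to total counts 12 were called higher and 1 lower. The smallest p were those of Gdf15 (3.39), Trib3 (2.47), Ddit3 (2.10), Cebpb (1.97) and Atf3 (1.43). Named after their values were seen, Atf4 (0.59) rose and Psat1 (-0.62) fell, and Phgdh (0.44) was lost in 9 of 19 alternatives. Exons of Ddit3 overlap Mars and those of Cebpb overlap Tmem189 on the other strand. The lists were drawn up with earlier results of these data known, so their direction is not independent evidence. The stromal sum and the mitochondrial ribosomal RNA share were higher beside these lists too.

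Cell type markers moved beside the angiogenic factors. The summed level of 11 stromal markers was 15067 to 18084 normalised read counts in control and 46601 to 50675 in midkine libraries, 2.86 times in the mean. Of the 11 tested, 9 rose and 1 fell, with Col1a1 at 1.68, Col1a2 at 1.25, the smooth muscle actin gene Acta2 at 2.10 and the fibronectin gene Fn1 at 1.10 in log2 fold change. Cxcl12 was the gene that fell, from 1376 ± 103 to 857 ± 46.8 (-0.68). Pdgfra (0.43) was not called, and Pdgfrb (0.61) was lost in 4 of 19 alternatives. Cxcl12, Pdgfra and Pdgfrb were named after their values were seen. The macrophage sum was 4137 to 6125 and 12167 to 13471, and of its 12 genes 5 rose, 3 fell and 4 were not called, with a median of 0.19; scaled to totals, 4 were called higher and 5 lower. Gpnmb (2.76) carried the rise of the sum: without it the other 11 markers had a mean sum of 3901 in control and 3834 in midkine libraries, with overlap. Cd68 (0.61) was higher, the complement genes C1qa (-1.21), C1qb (-0.90) and C1qc (-0.75) were lower and Csf1r (-0.21) was not called. The neutrophil sum was 545 to 680.0 and 106 to 116, where S100a8 (-3.93), S100a9 (-3.90) and Ngp (-3.39) fell and Mmp8 (1.20) rose. The other 6 of its 10 markers were below the minimum and not tested. Without S100a8 and S100a9, the remaining 8 markers went from a mean sum of 122 to 78.2, without overlap. In the dendritic cell list 3 of 12 rose and 6 fell (1 and 7 with scaling to total counts), with H2-Ab1 at 0.27, Cd74 at 0.17 and not called, Sirpa at 0.26 and Xcr1 at -1.58. The list's largest changes were in Ccr9, from 571 ± 41.8 to 20.4 ± 4.82 (-4.77), and Siglech, from 816 ± 36.3 to 102 ± 18.3 (-3.00), markers of plasmacytoid dendritic cells, and Bst2 (-1.08) and Clec9a (-1.03) fell too. Exons of Clec9a overlap Clec1b on the same strand, so reads could be split between them. H2-Ab1 and Cd74 made up most of the dendritic sum, and the other 10 markers went from a mean sum of 7437 to 4489, without overlap. These genes and the sums without the most abundant markers were singled out after their values were seen. Neither H2-Ab1 nor Sirpa was called when libraries were scaled to total counts or without the variance trend. H2-Ab1 was also lost with quantile normalization and without control replicate 3 (0.25, adjusted p = 0.0589, limma). Csf1r was called lower with scaling to total counts (-0.47, adjusted p = 0.00294, limma) and without control replicate 1 (-0.39, adjusted p = 0.00400, limma).

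Endothelial and platelet markers were scarce. Of 15 endothelial markers 8 were measured and 5 tested, with a sum of 406 to 460.0 in control and 521 to 535 in midkine libraries. Pecam1, which leukocytes also express, made up most of it and rose by 0.65, Kdr fell as given above, and Egfl7 (-0.08) and Vwf (-0.20) were not called. Without Pecam1, the other 7 measured markers were lower with midkine, with a mean sum of 154 in control and 99.8 in midkine libraries, without overlap. Cdh5, the defining cadherin of endothelium, named after its values were seen, went from 24.8 ± 2.77 to 3.02 ± 0.881 (log2 fold change -2.70, adjusted p = 4.10e-06 by limma). The platelet and megakaryocyte sum was 393 to 562 and 439 to 525, with Gp1bb (1.60), Treml1 (2.48) and Ppbp (0.95) higher and Pf4 (-1.25) lower. Without Pf4, which made up most of the control sum, the other 7 measured markers went from 92.8 to 315 in mean sum, without overlap. The 6 measured mast cell and basophil markers summed to 12.5 to 14.0 and 7.33 to 12.1. The neutrophil surface gene Ly6g and the mast cell or basophil genes Cpa3, Ms4a2 and Prss34, singled out after their values were seen, were at 0 in all midkine libraries, and no measured marker was at 0 in all 6.

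**Figure D4:**
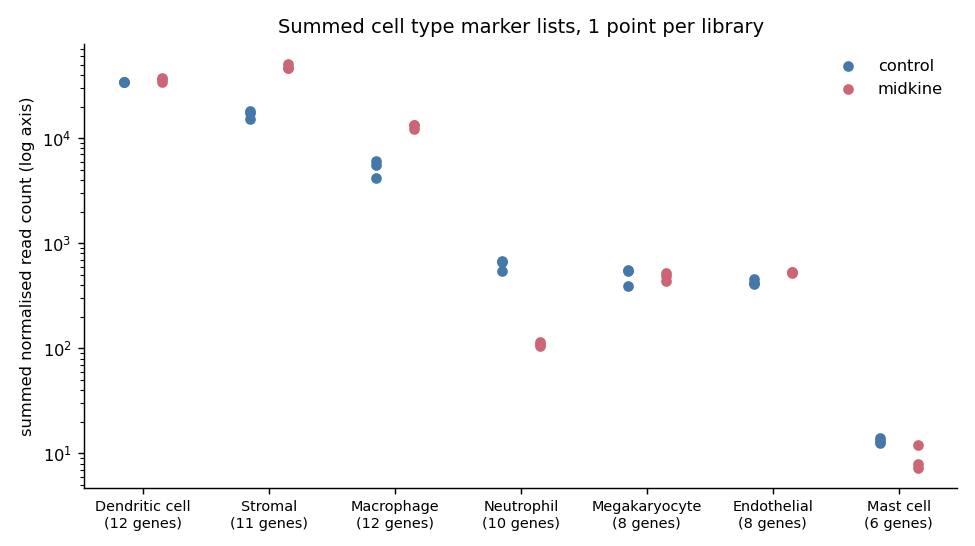
Summed normalised read count (y axis, log scale) of the measured markers of 7 cell types, 1 point per library, control beside midkine. The stromal and macrophage sums are higher and the neutrophil sum lower in all 3 midkine libraries. Gpnmb makes the macrophage difference, and the dendritic and platelet sums, at like levels in both groups, are mostly H2-Ab1 with Cd74 and, in controls, Pf4. In controls the neutrophil sum is mostly S100a8 and S100a9.

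Set against the stromal sum of the same library, the angiogenic factors differed between groups by unlike amounts. That sum was itself 2.86 times the control mean with midkine, so each ratio is smaller than that of the levels. Per 1000 stromal counts, the mean level with midkine was 3.02 times the control for Edn1, 1.78 for Vegfa, 1.59 for Hbegf, 1.36 for Thbs1 and 1.23 for Adm, without overlap between groups. For Pgf it was 1.08 times and the groups overlapped. Vegfb, at 0.518 times, was lower per stromal count in all midkine libraries. Per 1000 dendritic cell marker counts, mostly of H2-Ab1 and Cd74, the same means were 8.23 times for Edn1, 4.88 for Vegfa, 4.34 for Hbegf, 3.72 for Thbs1, 3.37 for Adm and 2.96 for Pgf, without overlap, and 1.39 for Vegfb, with overlap. The part of the marker lists and of the ribosomal RNA share in the levels of the 8 genes was not tested.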

How the data were processed

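RNA from 3 control and 3 midkine cultures was sequenced with the forward QuantSeq 3' kit on an Illumina HiSeq, per the labels. Per the submitters' processing notes, TopHat2 2.0.10 and Bowtie 1.0.0 were used with GRCm38 (mm10), beside HTSeq, DESeq2, SAMtools 0.1.19 and FastQC 0.11.0; neither annotation nor strand setting is given in the sources used here. Values are as deposited: the authors made a signal table of read counts scaled by size factors, and 100% of its values were whole multiples, within 1e-06 reads, of a value of 1 read between 0.916 and 1.13 per library.

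Genes with a mean of at least 10 were tested with limma 3.58.1 in R 4.3.3 (eBayes, variance trend) after taking log2(value + 1), a scale that understates changes of low genes, and p-values were adjusted by Benjamini and Hochberg's method. The method was tested on simulated data with far fewer changed genes and no change in ribosomal RNA share, so that test does not cover the scaling. The members and lists were chosen with earlier results of these data known. Named genes were the 8 factors, all tested genes of the VEGF, endothelin and adrenomedullin lists, in other lists up to 5 called genes with the smallest p, in cell type lists the 4 with the highest mean, and the 5 genes most correlated with Vegfa and with Edn1; others are marked where named. One result that this rule names is not reported here. Replicates differed by more than counting noise (chi-square per degree of freedom 2.42 to 11.7), so each library counted once. Alternatives were other pseudocounts, filters, scalings, no variance trend, a replicate block, edgeR 4.0.16 and DESeq2 1.42.0 on the recovered reads, and leaving out each library. Protein sequences of the factors were not analysed here. Promoter windows of Thbs1 and Hbegf were not used here.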

Additional observations from a re-analysis of the deposited data

How the results depend on the processing

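The 7 factors called higher were also called under pseudocounts of 0.5 and 5, a minimum mean of 1 or none, TMM, quantile and ribosomal RNA-free scaling, the replicate block, edgeR (5157 genes called), DESeq2 (4088) and without each library in turn (4305 to 4563 genes called). The genes were selected on this contrast, so these calls describe the effect of the processing only and are no further evidence. With a minimum mean of 50, Pgf and Hbegf were not tested and the other 5 were called. Of the separate list of other genes that promote vessel growth, fewer of which were then tested, 6 were called higher against 13. Vegfb was the exception, at 0.33 (limma adjusted p = 0.0964) with scaling to total counts and 0.58 (0.0853) without the variance trend, where 6 were called. Over the alternatives the log2 fold change ranged from 2.83 to 3.13 for Edn1, 2.09 to 2.40 for Vegfa, 1.90 to 2.37 for Hbegf, 1.70 to 2.01 for Thbs1, 1.54 to 1.84 for Adm, 1.28 to 1.76 for Pgf and 0.33 to 0.81 for Vegfb. Scaling to total counts moved the median of all genes to -0.26 and gave 1283 genes higher and 4817 lower (21.0% of calls higher, against 49.0% for 2481 and 2578); without ribosomal RNA in the totals it was 2023 and 3178 (38.9%). Libraries of the same replicate number did not deviate together (correlations of deviations -0.01, 0.03 and -0.06), which cannot show whether the samples were paired. With the replicate block 5160 genes and the same 7 factors were called. Reads limit Vegfc (2 to 9 per library) and Pgf (11 to 50).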
